A study of Mus musculus with 12 samples.

Results

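The mouse replication-dependent histone genes of chromosome 13 were followed through peak lists of 4 histone marks in a pair of melanoma cell lines. They were the protein-coding RefSeq genes from 21.7 to 23.9 Mb on chromosome 13 (mm10) whose symbol starts with Hist1, H1f, H2ac, H2bc, H3c or H4c, and 51 of 21887 protein-coding genes met this rule. Of these, 6 encode linker histone H1, 12 encode H2A, 13 encode H2B, 9 encode H3 and 11 encode H4. Line 493 carries a Kmt2d mutation and is called the mutant line. Line 971 is wild type (WT) for Kmt2d. Both are mouse melanoma cells grown in DMEM/F12 with serum, with no treatment, and the labels do not say how the mutation was made, whether a line is 1 clone or which animals the lines came from. Chromatin immunoprecipitation followed by sequencing (ChIP-seq) gave 1 library per line for each of H3K4me3, H3K27ac, H3K4me1 and H3K27me3. There were no replicates, so every difference between the lines below compares 1 library with another, has no replicate check and was not tested.

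Replication-dependent histone genes supply the histones that package newly made DNA in S phase. They are short, mostly lack introns, and give messenger RNAs that end in a stem-loop in place of a poly(A) tail. Many are arranged head to head, so that an H2A gene and an H2B gene share the DNA between their starts, and the cluster gathers in a nuclear body organised by NPAT. H3K4me3 marks active promoters, H3K27ac marks active promoters and enhancers, H3K4me1 marks enhancers, and H3K27me3 marks regions held silent by Polycomb. KMT2D is a methyltransferase that places H3K4me1 at enhancers.

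The genes lay in 3 blocks separated by more than 150 kb. Block 1 held 17 genes at chr13:21715711-21833475, block 2 held 5 genes at chr13:22035122-22043658, and block 3 held 29 genes at chr13:23531044-23764412. Gene lengths ran from 375 bp to 37455 bp with a median of 490 bp, and 4 gene models (H2bc22, H2bc23, H2bc6 and H2bc4) were longer than 1 kb. The short genes sit close together, so a single H3K4me3 peak often counted for several of them: 29 of 57 mutant peaks and 35 of 64 WT peaks touched at least 2 of the genes, and none touched more than 4.

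Promoter sequences from RefSeq (mm10) were matched to 48 of the 51 genes. H4c17 and H4c18 are shown because their promoters are nearly the same and because H4c17 was the gene whose H3K4me3 state differed between the lines. H2ac23 and H2ac24 are shown because they share a stretch of promoter and, like H4c18, had no H3K4me3 in either line. All 4 are printed 5′ to 3′ in the direction of transcription, up to the last base before the gene start. Capitals mark the TATA box (TATAAA), the CCAAT box and a core of the H4 subtype element (GGTCCG), on either strand.
H4c17: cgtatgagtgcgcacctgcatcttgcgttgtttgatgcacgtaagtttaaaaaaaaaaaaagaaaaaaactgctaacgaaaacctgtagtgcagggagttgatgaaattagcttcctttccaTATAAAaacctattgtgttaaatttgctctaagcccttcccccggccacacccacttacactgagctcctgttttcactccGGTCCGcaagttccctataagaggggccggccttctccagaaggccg
H4c18: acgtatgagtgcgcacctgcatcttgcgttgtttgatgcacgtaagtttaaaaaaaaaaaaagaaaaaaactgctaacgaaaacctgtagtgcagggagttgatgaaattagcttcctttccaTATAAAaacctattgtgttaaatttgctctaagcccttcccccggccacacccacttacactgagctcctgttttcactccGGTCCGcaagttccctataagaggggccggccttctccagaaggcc
H2ac23: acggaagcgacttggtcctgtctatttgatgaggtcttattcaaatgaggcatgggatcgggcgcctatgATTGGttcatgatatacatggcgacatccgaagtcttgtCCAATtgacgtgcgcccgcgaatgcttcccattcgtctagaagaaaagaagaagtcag
H2ac24: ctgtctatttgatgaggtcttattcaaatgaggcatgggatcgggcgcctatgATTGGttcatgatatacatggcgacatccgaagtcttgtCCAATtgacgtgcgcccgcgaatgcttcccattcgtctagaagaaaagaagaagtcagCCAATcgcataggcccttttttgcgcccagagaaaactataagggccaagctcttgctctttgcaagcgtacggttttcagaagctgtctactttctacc
The H4c17 sequence covers chr13:21811496-21811745 on the plus strand and the H4c18 sequence covers chr13:21832198-21832447 on the minus strand. The H2ac23 sequence is the 167 bp between its start and that of H2bc23, at chr13:21810200-21810366 on the plus strand. The H2ac24 sequence covers chr13:21833476-21833725 on the minus strand.

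Another 4 promoters are shown for the letters that differ by subtype and for their marks. H2bc8 and H2ac7 each share the printed bases with a head-to-head partner, and these bases lay outside H3K4me3 peaks in the mutant line and inside them in the WT line. H4c12 had its start under H3K4me3 in the WT line alone, and H1f2 had the H3K27ac peak with the highest fold at these genes in the mutant line. Capitals mark the same motifs and the octamer of H2B genes (ATTTGCAT) and the H1 box (AAACACA), on either strand.
H2bc8: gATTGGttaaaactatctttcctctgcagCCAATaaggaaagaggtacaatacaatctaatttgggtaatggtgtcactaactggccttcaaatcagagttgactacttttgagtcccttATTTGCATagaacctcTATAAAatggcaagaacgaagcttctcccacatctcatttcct
H2ac7: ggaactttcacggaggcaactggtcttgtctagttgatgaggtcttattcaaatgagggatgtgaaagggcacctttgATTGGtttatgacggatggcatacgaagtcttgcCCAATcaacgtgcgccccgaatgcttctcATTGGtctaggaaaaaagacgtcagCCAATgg
H4c12: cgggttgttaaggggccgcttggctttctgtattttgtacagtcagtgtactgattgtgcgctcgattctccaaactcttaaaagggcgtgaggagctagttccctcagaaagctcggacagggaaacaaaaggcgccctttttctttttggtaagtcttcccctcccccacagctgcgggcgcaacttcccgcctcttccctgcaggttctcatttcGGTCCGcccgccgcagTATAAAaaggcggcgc
H1f2: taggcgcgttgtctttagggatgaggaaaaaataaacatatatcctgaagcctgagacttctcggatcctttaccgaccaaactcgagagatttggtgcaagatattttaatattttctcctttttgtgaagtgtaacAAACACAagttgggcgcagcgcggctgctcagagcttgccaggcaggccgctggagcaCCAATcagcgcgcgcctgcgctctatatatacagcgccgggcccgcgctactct
H2bc8 is shown at chr13:23571221-23571399 and H2ac7 at chr13:23574208-23574380, both on the plus strand. H4c12 is shown at chr13:21750554-21750803 on the minus strand and H1f2 at chr13:23738557-23738806 on the plus strand.

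The subtypes carried different promoter letters. In windows from 250 bp before to 50 bp after the start, searched on both strands, CCAAT was found in 40 of 48 promoters of these genes (83.3%) and in 39.2% of all 17492 promoters. It was in every H1, H2A, H2B and H3 promoter available (6, 12, 12 and 7) but in 3 of 11 H4 promoters. TATAAA, the TATA box, was in 60.4% of these promoters and in 13.3% of all promoters. GGTCCG, part of the H4 subtype element, was in 10 of 11 H4 promoters and in 10.6% of all. AAACACA, the H1 box, was in 5 of 6 H1 promoters and in 6.16% of all. ATTTGCAT, the octamer known from H2B genes, was in 4 H2B and 4 H2A promoters and in 1.72% of all. The windows of head-to-head partners overlap, so such a pair counts the same letters for both genes. None of the search strings contains another.

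**Figure D1:**
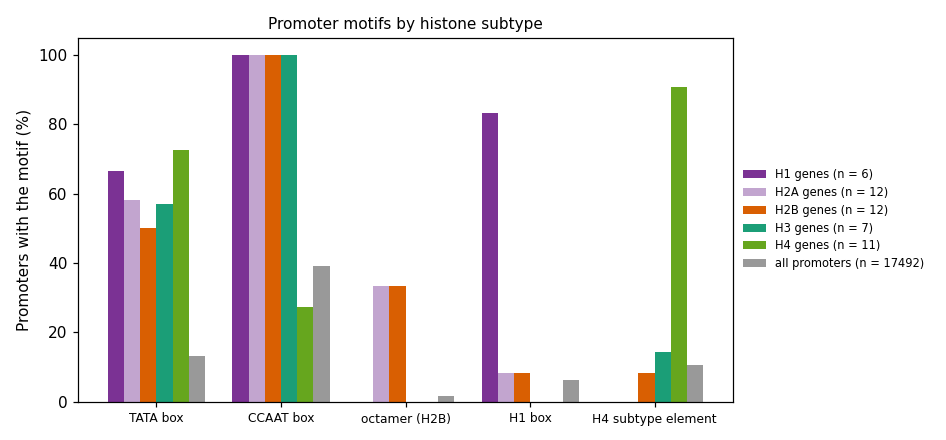
Share of 300-base promoters (%, vertical axis) holding each motif (the TATA box, the CCAAT box, the octamer, the H1 box and the H4 subtype element, left to right), with 1 bar per histone subtype and a grey bar for all 17492 promoters. The H4 element was in 90.9% of H4 promoters, the H1 box in 83.3% of H1 promoters, and the CCAAT box in 100% in every subtype except H4 (27.3%).

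Facts of the whole lists bear on the counts that follow. The mutant and WT lists held 17987 and 23154 peaks for H3K4me3, 18751 and 26415 for H3K27ac, and 3649 and 17373 for H3K4me1. Read depth is not given in the sources used here, so list length cannot be told apart from depth. The mutant H3K27me3 list, by its name, was called against the WT H3K27me3 library and holds 1300 regions higher in the mutant line, and it is not set against the WT list of 25394 peaks. Kmt2d itself had H3K4me3 peaks summing to 9144 bp in the mutant line and 9547 bp in the WT line, which does not check the mutation. H3K4me3 was called for 7 of 12 melanocyte markers in the mutant line and for 4 in the WT line, with Pax3, Pmel, Mitf and Mc1r marked in both, Sox10, Mlana and Slc45a2 in the mutant line alone, and Tyr, Tyrp1, Dct, Kit and Ednrb in neither. Markers of other cells were marked in 4 of 7 (mutant) and 3 of 7 (WT) keratinocyte genes, the difference being Dsp, and in both lines in 3 of 6 fibroblast, 1 of 4 endothelial and 1 of 5 immune genes.

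Nearly all of the genes had H3K4me3 at an end in both lines. A peak lay within 1 kb of a gene end at 46 of 51 genes in the mutant line (90.2%) and at 47 of 51 in the WT line (92.2%). Over all protein-coding genes the share was 56.7% in the mutant line and 56.4% in the WT line. The same 46 genes were marked in both lines, as were 55% of all genes, H4c17 was marked in the WT line alone, and 4 genes, H2bc23, H2ac23, H4c18 and H2ac24, were marked in neither, as were 41.9% of all genes. Over all genes, 1.68% were marked in the mutant line alone and 1.37% in the WT line alone. Counted once each, 57 peaks covering 83.6 kb in the mutant line and 64 peaks covering 87.2 kb in the WT line lay at the genes. That is 89.1 mutant peaks per 100 WT peaks, beside 77.7 per 100 over the whole lists. With the WT list shortened to the length of the mutant list, the peaks at the genes numbered 57 (mutant) and 55 (WT).

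**Figure D2:**
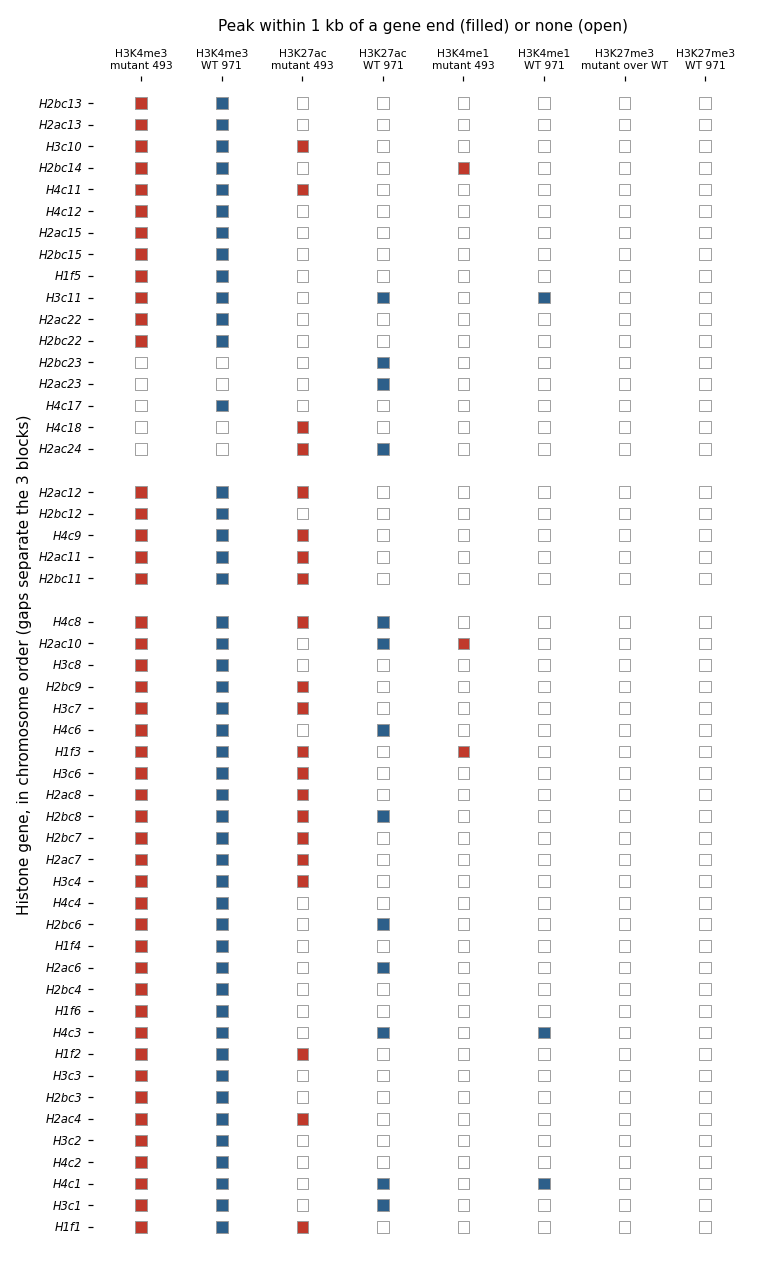
Each of the 51 histone genes (rows, in chromosome order, with gaps between the 3 blocks) against the mark and line (columns), with a filled square for a peak within 1 kb of a gene end and an open square for none. Red columns are the mutant line 493 and blue columns the WT line 971; the H3K27me3 column named mutant over WT is the list called against the WT library. H3K4me3 is filled in both lines for 46 genes, H3K27ac fills 21 genes in the mutant line and 13 in the WT line with 3 in common, and both H3K27me3 columns are empty.

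The 5 genes without H3K4me3 in the mutant line were neighbours at the end of block 1, and their promoters repeat one another. The 300-base promoter windows of H4c17 and H4c18 shared an unbroken run of 285 identical bases, and 298 of 299 aligned bases matched. H2bc23 and H2ac24 shared a run of 233 bases on opposite strands, and H2ac23 and H2ac24 shared 200 bases. Among 1120 pairs of promoters that do not overlap on the chromosome, the median longest identical run was 9 bases, and the one other pair at or above 50 was H4c11 with H4c12, at 72. In that pair 273 of 284 aligned bases matched (96.1%), and both genes had H3K4me3 in both lines. Reads from such copies can be placed equally well at either, and how the authors treated them is not given in the sources used here; its part in the absence of peaks was not tested. H4c17 (chr13:21811746-21812150, plus strand) had no peak in the mutant line and 1 WT peak of 318 bp at chr13:21812191-21812508, past its end, with the authors' score of 69.5, close to the smallest score in that list, 50. H3K27ac was called at 2 of the 5 genes in the mutant line (H4c18 and H2ac24) and at 3 in the WT line (H2bc23, H2ac23 and H2ac24).

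Among the linker histone genes, H3K4me3 was present at all 6 in both lines, and the widths ran from 1439 to 4435 bp in the mutant line and from 1135 to 3969 bp in the WT line. H1f4 had a single peak of 4435 bp in the mutant line and 3815 bp in the WT line, and H1f5 had 3654 bp in the mutant line and 3969 bp in the WT line. Both genes were covered along their whole length in both lines. H1f2 had 2828 bp in the mutant line and 3815 bp in the WT line, H1f3 had 2701 bp in the mutant line and 3119 bp in the WT line, and H1f1 had 1614 bp in the mutant line and 2161 bp in the WT line. The mutant width was thus the larger at H1f4 and the smaller at the other 4 of these 5 genes. H1f6, the testis-specific linker histone H1t, was counted as marked only through a peak past its end, of 1439 bp in the mutant line and 1135 bp in the WT line, that also touched H4c3. None of the bases of H1f6 itself lay under H3K4me3 in either line. H2bc1 and H2ac1, a further pair of histone genes lying just outside the interval (chr13:23933725-23934913), had no peak of any mark in either line.

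The H2A and H2B genes with H3K4me3 numbered 10 of 12 and 12 of 13 in each line. The largest summed H3K4me3 width of the cluster was at H2bc6, with 8286 bp in the mutant line and 7851 bp in the WT line. Its gene model spans 37455 bp, and the sum joins separate peaks at its opposite ends. At one end a peak also counted for H4c4, and at the other the peak was that of H1f4, 4435 bp (mutant) and 3815 bp (WT). H2ac6 and H2bc4 shared peaks summing to 4684 bp in the mutant line and 4960 bp in the WT line. H2ac12 and H2bc12 in block 2 shared 3701 bp in the mutant line and 2635 bp in the WT line, while their neighbours H2ac11 and H2bc11 shared 2834 bp in the mutant line and 4141 bp in the WT line. By summed width these neighbouring pairs differed in opposite directions. At H2ac11 and H2bc11 this turned on a mutant break of 64 bp (chr13:22041304-22041367) inside the stretch of a WT peak of 2915 bp. Covered bases, those under peaks from 1 kb before to 1 kb after the gene, were 1643 (mutant) and 1708 (WT) at H2ac11. At H2bc11 they were 1632 (mutant) and 1646 (WT). They were 2241 (mutant) and 2101 (WT) at H2ac12, and 2219 (mutant) and 1674 (WT) at H2bc12. H2ac4 was among the narrowest, at 1045 bp in the mutant line and 1455 bp in the WT line.

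All 9 H3 genes carried H3K4me3 in both lines, and 8 of them had the smaller width in the mutant line. H3c6 was the narrowest, at 975 bp in the mutant line and 1297 bp in the WT line. H3c1 had 3430 bp in the mutant line and 4401 bp in the WT line. H3c7, the exception among the H3 genes by summed width, had 3563 bp (mutant) and 2730 bp (WT). Covered bases at H3c7 ran the other way, at 1575 (mutant) and 1886 (WT). They were the larger in the mutant line at H3c8, with 2351 (mutant) and 2295 (WT), and at H3c2, with 2247 (mutant) and 2208 (WT). Of the 11 H4 genes, 9 were marked in the mutant line and 10 in the WT line. H4c8 had 4491 bp in the mutant line and 4395 bp in the WT line, and H4c2 had 1672 bp in the mutant line and 1355 bp in the WT line. By summed width of whole peaks, H4 held every gene of the cluster that differed by 1.5-fold or more. H4c6 had 1770 bp in the mutant line and 915 bp in the WT line. H4c4 had 1226 bp (mutant) and 4036 bp (WT), and H4c1 had 1816 bp (mutant) and 2860 bp (WT). This was not particular to H4 by covered bases. H4c4, at 1226 (mutant) and 1352 (WT), and H4c1, at 1816 (mutant) and 2011 (WT), then fell short of 1.5-fold. H4c6 still passed it, at 1770 (mutant) and 915 (WT). So did H3c1 with 1097 (mutant) and 1932 (WT), H2ac8 with 1308 (mutant) and 2107 (WT), and H1f6 with 707 (mutant) and 418 (WT).

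The log2 ratio of width, mutant over WT, had a median of -0.10 over the 46 genes marked in both lines and of -0.05 over all 12040 such protein-coding genes. It was above 0 at 14 of the 46 genes (30.4%), where the percentage over all genes was 39.5. One gene was at least 1.5-fold wider in the mutant line, H4c6, with a log2 ratio of 0.95, beside 3.33% of all genes. The genes at least 1.5-fold narrower were H4c4, with a log2 ratio of -1.72, and H4c1, with -0.66, which makes 4.35% of the 46 beside 4.92% of all genes. By subtype the median log2 ratio was -0.16 for H1, -0.18 for H2A, -0.06 for H2B, -0.08 for H3 and 0.03 for H4, and by block it was -0.13, 0.17 and -0.08. The shares past 1.5-fold were near those of all genes.

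The H4c4 value turned on where a peak ended. In the WT line 1 peak of 4036 bp (chr13:23581618-23585653, score 2115) ran over H4c4 and on to the end of H2bc6. In the mutant line the same stretch held a peak of 1226 bp (chr13:23581628-23582853, score 580) and a separate one of 2625 bp (chr13:23583039-23585663, score 817), and the second did not come within 1 kb of H4c4. Both outer edges of the stretch differed by 10 bp between the lines, so the width at H4c4 differs through the break between the mutant peaks.

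**Figure D3:**
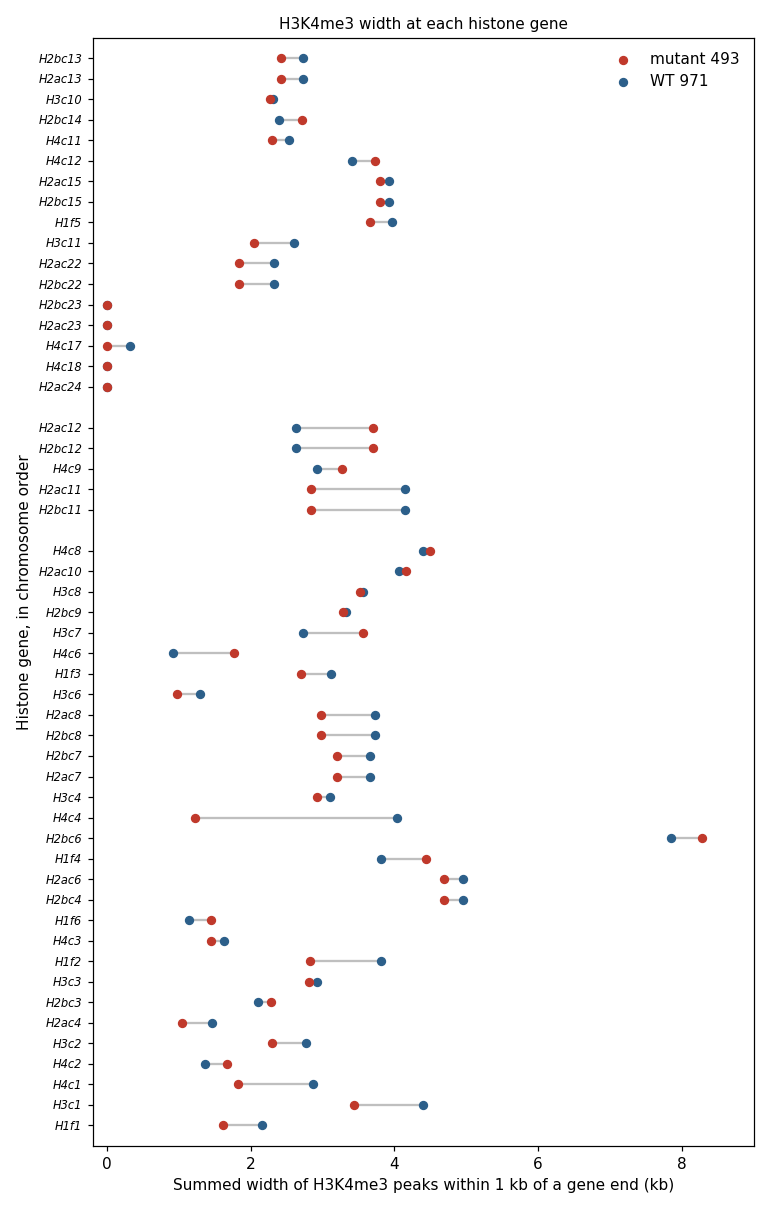
Summed width of the H3K4me3 peaks within 1 kb of a gene end (kb, horizontal axis) for each histone gene in chromosome order, with red points for the mutant line 493 and blue points for the WT line 971 joined by a grey line. Most pairs lie close together; H4c4 (1226 bp in the mutant line and 4036 bp in the WT line) has the longest line, and the 5 genes at the end of block 1 lie at or near 0, with the mutant and WT points on top of each other at 4 of them.

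H3K4me3 peaks at these genes ranked lower by the authors' score than those at other marked genes. A score is minus 10 times log10 p, and the best one per gene had a median of 741 in the mutant line and 906 in the WT line. At other protein-coding genes with H3K4me3 the medians were 2310 in the mutant line and 2711 in the WT line. Replication-dependent histone genes on other chromosomes had 1357 (mutant) and 1601 (WT), and other marked genes of the interval 1679 (mutant) and 1695 (WT). Replication-independent histone genes had 3100 (mutant) and 2956 (WT). Genes of histone transcription or 3′ processing had 3100 (mutant) and 3064 (WT). A score of exactly 3100 recurred at many genes of these last sets, and the largest at other protein-coding genes was 3233 in each line. Medians of about 3100 thus lie near the top of the scale, and small differences among them are not read. The best peak was in the more significant 50% of its list at 17 of 46 histone genes in the mutant line (37.0%) and at 28 of 47 in the WT line (59.6%), while of other marked genes 74.5% in the mutant line and 87.2% in the WT line had theirs there. The highest score at the cluster was 3088 at H2ac6 and H2bc4 in the mutant line, and 2801 at H1f5 in the WT line.

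Nearly every mutant H3K4me3 peak at the genes had a WT counterpart. By 1 bp of overlap, 56 of 57 mutant peaks (98.2%) and 54 of 64 WT peaks (84.4%) met a peak of the other line, beside 96.5% of all mutant and 95.6% of all WT peaks at protein-coding gene ends. The mutant peak without a counterpart was 630 bp wide, at chr13:23551533-23552162, with a score of 91.9, and it lay over the start of H4c6. The 10 WT peaks without a counterpart were 318 to 620 bp wide and scored 56.3 to 160, low in their list. Of these, 5 contained gene starts, 8 in all, those of H2ac15, H2bc15, H2ac22, H2ac8, H2bc8, H2bc7, H2ac7 and H2ac4.

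At many of the histone genes the start itself lay outside H3K4me3, at more of them in the mutant line. This was examined in the 41 histone genes no longer than 1 kb that had a start in the promoter table and H3K4me3 in both lines. The base at the start lay under a peak in 20 genes in the mutant line (48.8%) and in 32 in the WT line (78.0%). Over all 9673 genes with a start and H3K4me3 in both lines the percentage was 93.2 in each. Both lines covered 18 starts and neither covered 7. The WT line alone covered 14 starts, those of H3c10, H4c12, H2ac15, H2bc15, H3c11, H2ac22, H4c9, H3c6, H2ac8, H2bc8, H2bc7, H2ac7, H2ac4 and H4c1, which is 34.1% of the 41 beside 1.05% of all genes. The mutant line alone covered 2, those of H4c6 and H4c2, which is 4.88% beside 1.13%.

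Of the 14 starts covered in the WT line alone, 8 lay in the small WT peaks described above. The other 6 lay in WT peaks that had a mutant counterpart and reached past the start. At H4c12 that WT peak was 3408 bp wide (score 1164) and at H4c9 2915 bp (score 1208). At H3c10, H3c11, H3c6 and H4c1 it was 843 to 1423 bp wide, with scores of 317 to 622. With the WT list shortened by score to the length of the mutant list, the WT line covered 26 starts and 8 of them alone. When peaks less than 1000 bp apart were joined, 36 starts were covered in the mutant line and 37 in the WT line, 3 of them in the WT line alone; joining across gaps under 300 bp gave 22 in the mutant line and 33 in the WT line, with 13 in the WT line alone. Of the 21 starts uncovered in the mutant line, 7 were within 100 bp of a peak edge, and of the 9 uncovered in the WT line, 2 were. At H4c9 the gap in the mutant line was 64 bp, at H4c12 187 bp and at H2bc7 and H2ac7 907 bp.

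**Figure D4:**
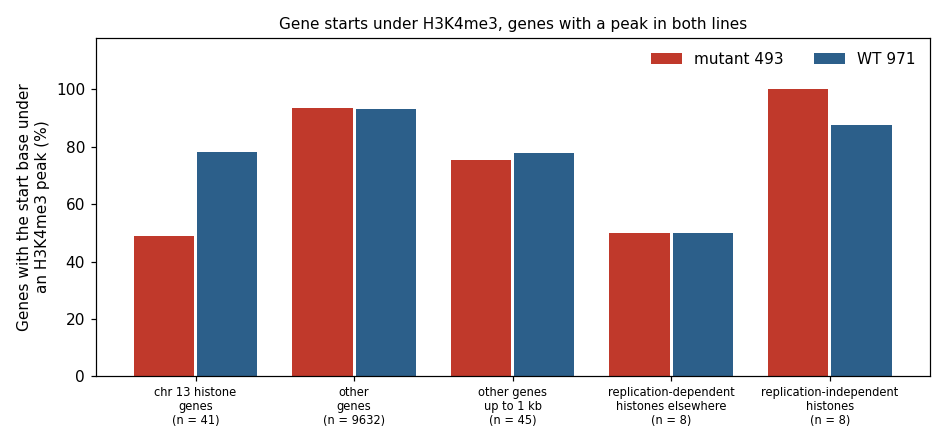
Share of genes whose start base lay under an H3K4me3 peak (%, vertical axis), in the mutant line 493 (red bars) and the WT line 971 (blue bars), for the chromosome 13 histone genes and 4 comparison sets with a peak in both lines. The histone genes of chromosome 13 stand at 48.8% in the mutant line and 78.0% in the WT line, and the other genes at about 93% in both. The comparison sets overlap one another.

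Starts outside H3K4me3 were also seen at other short genes, which include other replication-dependent histone genes. Of 45 other genes up to 1 kb long with H3K4me3 in both lines, the start was covered in 75.6% in the mutant line and 77.8% in the WT line. These 45 include the 8 replication-dependent histone genes given next, so the 2 sets are not separate. Of 8 replication-dependent histone genes on other chromosomes with a known start and symbols starting H2ac, H2bc, H3c or H4c, 4 starts were covered in each line. H2bu2, H2aw and H4f16, which are among the 13 such genes described below, are not in these 8. Of 8 replication-independent histone genes, 8 were covered in the mutant line and 7 in the WT line. By subtype within the cluster, starts covered numbered 4 of 6 in both lines for H1, 3 (mutant) and 8 (WT) of 10 for H2A, 5 (mutant) and 8 (WT) of 9 for H2B, 4 (mutant) and 7 (WT) of 7 for H3, and 4 (mutant) and 5 (WT) of 9 for H4.

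Averaged over all subtypes, H3K4me3 on these genes had a low point just inside the gene in both lines. In 50-bp steps from the start, the mean share of bases under a peak was lowest in the step that begins at 150 bp in the mutant line, at 31.9%, and in the step that begins at 200 bp in the WT line, at 34.9%. In the step that begins at 500 bp it was 97.6% in both. In the step at 200 bp other genes had 93.1% in the mutant line and 93.0% in the WT line. Over the gene itself, 57.0% of bases were covered in the mutant line and 61.9% in the WT line, over the 500 bp after its end 95.2% (mutant) and 92.2% (WT), and over the 500 bp before its start 55.2% (mutant) and 69.2% (WT). The gene was covered less than both flanks at 18 of 41 genes in the mutant line and at 21 of 42 in the WT line. Of these 3 stretches, the one before the start differed most between the lines. Cover of the gene itself differed by subtype. It was 81.1% (mutant) and 81.2% (WT) for H1, and 80.5% (mutant) and 62.8% (WT) for H4. The H4 means are over unlike sets, 9 genes in the mutant line and 10 in the WT line. The gene in the WT set alone is H4c17, with 0% of its bases covered, which lowers the WT mean. For H2A it was 45.5% (mutant) and 60.3% (WT), and for H2B 37.8% (mutant) and 49.4% (WT). For H3 it was 47.4% (mutant) and 62.1% (WT).

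**Figure D5:**
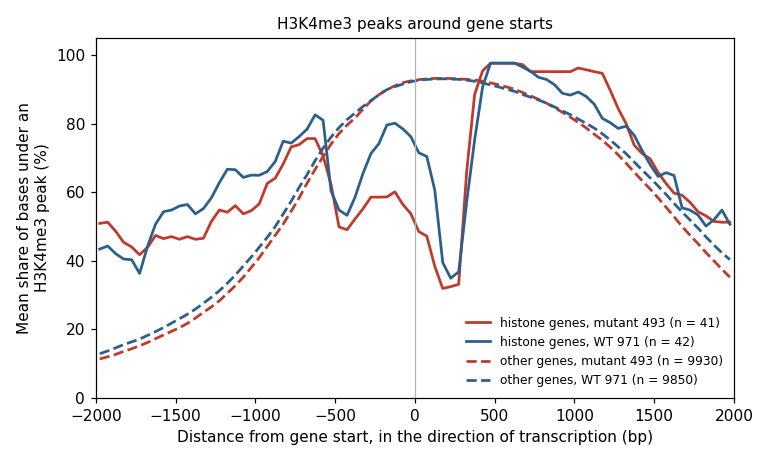
Mean share of bases under an H3K4me3 peak (%, vertical axis) by distance from the gene start in the direction of transcription (bp, horizontal axis, 50-bp steps), for histone genes up to 1 kb long (solid) and other genes (dashed) in the mutant line 493 (red) and the WT line 971 (blue). The solid lines dip to 31.9% in the mutant line and 34.9% in the WT line inside the gene and reach 97.6% by 500 bp, while the dashed lines are at 93.1% (mutant) and 93.0% (WT) in the step at 200 bp and fall off on both sides.

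The shared DNA of the head-to-head pairs showed the same split. Among genes with a start in the promoter table there were 8 such pairs of an H2A and an H2B gene, with 163 to 248 bp (median 178 bp) between the starts. H2bc4, which adjoins H2ac6, had no start there and was not assessed. In the mutant line this stretch was free of H3K4me3 in 6 pairs, and in the WT line in 2. In the pairs H2bc13 with H2ac13 and H2ac12 with H2bc12 it was wholly covered in both lines. In the pairs H2bc23 with H2ac23 and H2ac11 with H2bc11 it was free in both lines. H2bc23 and H2ac23 had no H3K4me3 peak within 1 kb of an end in either line. In the other 4, H2ac15 with H2bc15, H2ac22 with H2bc22, H2ac8 with H2bc8 and H2bc7 with H2ac7, none of it was covered in the mutant line, while the WT line covered 81.6% for H2ac22 with H2bc22 and 100% for the rest. The H2bc8 and H2ac7 promoters printed above are 2 of these stretches. The WT cover of these 4 pairs came from small peaks without a mutant counterpart, 335 to 550 bp wide. In the order of the pairs above, these peaks ranked 16266, 20205, 20821 and 19240 in the WT list. The mutant list held 17987 peaks, so a WT list shortened to that length keeps only the peak at H2ac15 with H2bc15. Head-to-head pairs of other genes were not assessed.

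H3K27ac was called at more of the histone genes in the mutant line, at different genes in the lines for the most part. In the mutant line 21 of 51 genes (41.2%) had a peak within 1 kb of an end, and in the WT line 13 of 51 (25.5%). Over all protein-coding genes the share was 19.5% in the mutant line and 28.7% in the WT line. The 18 genes marked in the mutant line alone make 35.3% of the cluster, beside 6.84% of all genes, and the 10 marked in the WT line alone make 19.6%, beside 16.1%. The 3 marked in both lines were H2ac24, H4c8 and H2bc8, beside 12.6% of all genes, and 20 genes had none in either line, beside 64.4% of all genes. Each peak counted once, there were 16 in the mutant line and 11 in the WT line, or 145 per 100, while the whole lists held 71.0 mutant peaks per 100 WT peaks. Neighbouring genes share these peaks, so 18 genes are not 18 separate places.

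The genes with H3K27ac in the mutant line alone included 3 linker histone genes (H1f1, H1f2 and H1f3), 5 H2A genes (H2ac12, H2ac11, H2ac8, H2ac7 and H2ac4), 3 H2B genes (H2bc11, H2bc9 and H2bc7), 4 H3 genes (H3c10, H3c7, H3c6 and H3c4) and 3 H4 genes (H4c11, H4c18 and H4c9). No linker histone gene had H3K27ac in the WT line. The genes with H3K27ac in the WT line alone were H2ac23, H2ac10 and H2ac6, H2bc23 and H2bc6, H3c11 and H3c1, and H4c6, H4c3 and H4c1. In block 2, 4 of the 5 genes were marked in the mutant line and none in the WT line, through 3 peaks.

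H3K27ac peaks at these genes were short, as they were in the whole lists, where the median width was 107 bp in the mutant line and 116 bp in the WT line. Widths at the genes ran from 89 to 196 bp in the mutant line (median 89) and from 88 to 198 bp in the WT line (median 123), and 9 of the 16 mutant peaks and 3 of the 11 WT peaks had the smallest width in their list. Over the whole lists 34.6% of mutant and 27.2% of WT peaks had that width. The authors' fold over input was 3.95 to 6.85 (median 4.92) in the mutant line and 3.80 to 6.64 (median 5.51) in the WT line, with -log10 p of 4.92 to 10.3 in the mutant line and 4.49 to 11.1 in the WT line. In the more significant 50% of their list were 7 of 16 mutant and 8 of 11 WT peaks. With those peaks alone, 9 genes were marked in each line, through 7 mutant and 8 WT peaks. With the WT list shortened to the length of the mutant list, 21 genes were marked in the mutant line and 11 in the WT line, through 16 mutant and 9 WT peaks. The order of the lines thus depended on how the lists were thinned.

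At H1f2 the mutant peak was 89 bp at chr13:23738051-23738139, centred at -712 bp from the start, with a fold of 6.85. At H2bc9 it was 124 bp with a fold of 6.36, and the WT line had none there. At H4c8 the mutant peak was 196 bp at chr13:23530525-23530720 with a fold of 6.76, and the WT peak was 88 bp at chr13:23530733-23530820 with a fold of 5.73, so they lay side by side without touching. The strongest WT peak of the cluster was 161 bp at chr13:23584300-23584460, inside the H2bc6 gene model near its end, with a fold of 6.64 and a -log10 p of 11.1.

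None of the 16 mutant and 11 WT H3K27ac peaks overlapped a peak of the other line by 1 bp, where 23.8% of mutant and 14.8% of WT peaks at all gene ends did. Within 1 kb, 2 of 16 mutant peaks (12.5%) and 3 of 11 WT peaks (27.3%) had a counterpart, whereas 62.7% of 4353 mutant and 44.3% of 6999 WT peaks at gene ends did. By gene and peak pair, for genes with a known start, 13 were upstream of the start, 4 within the gene and 6 past its end in the mutant line. In the WT line 6 were upstream, 3 within and 3 past the end. Peaks overlapping a gene end itself were found at 3 genes in the mutant line and 2 in the WT line.

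H3K4me1 was rare at the genes, with 3 peaks in each line. The mutant peaks were at H2bc14 (205 bp), H2ac10 (212 bp) and H1f3 (246 bp), and the WT peaks at H3c11 (430 bp), H4c3 (200 bp) and H4c1 (200 bp). This is 5.88% of the genes in each line, where all protein-coding genes had 2.27% in the mutant line and 4.21% in the WT line. No histone gene had H3K4me1 in both lines, beside 0.475% of all genes, and 45 had it in neither, beside 94%. Genes marked in the mutant line alone were 1.79% of all genes and those in the WT line alone 3.73%. The peaks at the cluster came to 100 mutant per 100 WT, against 21.0 per 100 over the whole lists, but with 3 peaks each. The peaks ranked in the middle or low part of their lists, with the mutant peaks at 32.7%, 45.2% and 98.7% from the top and the WT peaks at 52.7%, 77.8% and 92.7%. No WT peak was left when that list was shortened to the length of the mutant one.

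H3K27me3 was absent from the genes in the lists. No histone gene had a WT H3K27me3 peak within 1 kb of an end, where 9.94% of all protein-coding genes did. No region of the list higher in the mutant line lay there either, where 0.219% of all genes had one, and that list held none in the whole interval. The WT list held 25 peaks in the interval, of which the nearest was 6.54 kb from an end of a histone gene and the median distance was 37.8 kb. Other genes of the interval had it, with WT H3K27me3 peaks summing to 1172 bp at Prss16, a serine protease gene, and 731 bp at Slc17a4, a phosphate transporter gene.

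Most other genes of the interval had no H3K4me3. Of 52 other protein-coding genes there, 7 had H3K4me3 in both lines (13.5%): Zfp184, Pom121l2, Zfp322a, Abt1, Btn1a1, Btn2a2 and Hfe. The 36 vomeronasal receptor genes between the blocks had no peak of any mark in either line. H4bc24, whose symbol falls outside the rule, adjoins H2ac24 and like it had no H3K4me3 and had H3K27ac in both lines.

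Replication-dependent histone genes on other chromosomes, 13 in all, had H3K4me3 at all 13 in both lines and H3K27ac at 8 in the mutant line and 6 in the WT line. H2bc1 and H2ac1, on chromosome 13, are not among these 13 and had neither mark. The median log2 width ratio of the 13 genes on other chromosomes was 0.05. Among them, the H2B gene H2bu2 had 2046 bp in the mutant line and 835 bp in the WT line. The 9 replication-independent histone genes were all marked by H3K4me3 in both lines, and 4 (mutant) and 6 (WT) by H3K27ac. Of 25 genes that act in histone gene transcription or histone mRNA 3′ processing, 23 had H3K4me3 in each line, and Nfya and Nfyc had none. H3K27ac was at 11 of them in the mutant line and 16 in the WT line. Npat, the coactivator of histone genes, had H3K4me3 of 4005 bp in the mutant line and 3838 bp in the WT line, and Slbp, which binds the stem-loop, had 3414 bp in the mutant line and 3033 bp in the WT line. Casp8ap2, which encodes the FLASH protein of the processing machinery, had 3105 bp in the mutant line and 3194 bp in the WT line. Hinfp, which binds the H4 element, had 2293 bp in the mutant line and 2520 bp in the WT line.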

How the data were processed

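ChIP-seq of 4 marks was done in 2 mouse melanoma lines, with 1 library per line and mark (8 libraries). The 4 input libraries are not analysed here. Per the submitters' processing notes the build was mm10 and the tools included MACS2, FastQC and MultiQC, without versions. For aligner, read filters and depth the entry is "not given in the sources used here", so precision cannot be stated. The authors deposited peak positions, with a fold enrichment over control (a ratio) and -log10 p and q values for H3K27ac, H3K4me1 and H3K27me3. The H3K4me3 lists hold the authors' score, minus 10 times log10 p, with a smallest value of 50. These values describe and rank peaks within a list. The control of the mutant H3K27me3 list is known from its name alone.

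Peaks on the 19 autosomes, X and Y were kept. Coordinates are 1-based. A gene was marked when a peak lay within 1 kb of either end of its RefSeq (GRCm38.p6) model, and widths are those of whole peaks. Starts and strands came from the RefSeq promoter table, which held 48 of the 51 genes. Overlap meant at least 1 bp. Python 3.11.15, pandas 2.3.3 and numpy 2.4.6 were used, with Biopython 1.88 for promoter alignment, and the scripts were tested on simulated data. With 1 library per line and mark there was no test. The genes and lists were chosen with earlier results of these data known. Genes named are those whose state differs between the lines, those without H3K4me3, and the 5 widest and narrowest per line; others, including the genes with examples of covered starts, were chosen after their values were seen. Alternatives changed the distance, the peak threshold, list length, overlap and fold. Joining of peaks and leaving out the 5 genes with repeated promoters were chosen after seeing the data.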

Additional observations from a re-analysis of the deposited data

How the results depend on the processing

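Of 93 values recomputed under alternatives, 60 stayed within 1.5 times the reported count or moved little, 33 moved. A count in one line has no direction of its own, but the order of the lines did change for 3 marks. H3K4me3 peaks numbered 57 (mutant) and 64 (WT) as reported. With lists of equal length they numbered 57 (mutant) and 55 (WT), at 46 genes in each line. H3K27ac peaks numbered 16 (mutant) and 11 (WT) as reported and 7 (mutant) and 8 (WT) with the more significant 50%. Genes with H3K4me1 numbered 3 in each line as reported but 10 (mutant) and 13 (WT) at 2.5 kb. The median log2 H3K4me3 width ratio stayed below 0 under every alternative run. Requiring a peak on the gene end itself left H3K27ac at 3 genes (mutant) and 2 (WT) and H3K4me1 at 0 and 0. Allowing 2.5 kb gave WT H3K27ac at 21 genes, H3K4me1 at 10 genes (mutant) and 13 (WT) from 6 peaks each, and a median log2 H3K4me3 width ratio of -0.14. With the more significant 50% of each list, H3K4me3 marked 17 genes through 10 peaks in the mutant line and 28 genes through 20 peaks in the WT line, mutant H3K27ac marked 9 genes through 7 peaks, WT H3K27ac also 9 genes, and WT H3K4me1 0 genes through 0 peaks; starts covered numbered 3 (mutant) and 6 (WT) of 15 genes, 3 in the WT line alone and 0 in the mutant line alone. With lists of equal length, WT H3K4me1 marked 0 genes through 0 peaks, the median log2 width ratio was -0.044, and 8 starts were covered in the WT line alone. Covered bases in place of peak widths gave -0.11. At a fold of 2, 0 genes were wider and 1 narrower in the mutant line. H3K27ac counterparts within 1 kb were found for 2 mutant and 3 WT peaks. Joining peaks less than 1000 bp apart gave 36 covered starts in the mutant line and 3 covered in the WT line alone. The cause of these moves was not tested. Leaving out the 5 genes with repeated promoters, a -log10 q of at least 2, 50% overlap and joining under 300 bp moved no count by 1.5 times. No paired analysis was possible because each line has 1 library per mark. Depth is unknown, so a missing peak is a peak not called, not a mark shown absent.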
